A study of Canis lupus familiaris with 4 samples.

Results

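The genes DCN, LUM, PRELP and EPYC, which encode small leucine-rich proteoglycans, were examined together with COMP and PRG4, which encode other secreted matrix proteins. These 6 genes of 11277 in the count tables were chosen by name, and their difference between mammary carcinoma and non-tumor tissue was known when they were chosen. Their values in that comparison are therefore given as a description, with no p-value, and nothing is drawn from whether they passed the call rule. Mammary ductal carcinoma (libraries T1 and T2) and the non-tumor mammary tissue next to it (the control libraries C1 and C2) were taken from 6 female dogs of different breeds, intact and 5 to 14 years old, with early-stage disease. Each library is a pool of 3 dogs, and C1 and T1 (pool 1) came from one set of dogs and C2 and T2 (pool 2) from the other. The control is thus tissue of the same dogs and not of healthy ones, and differences between single dogs cannot be seen in 2 pools. Where a pair of values is given for a tissue, pool 1 stands first.

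Small leucine-rich proteoglycans are secreted proteins with a curved stack of leucine-rich repeats, most of which carry chondroitin, dermatan or keratan sulfate chains. They coat collagen fibrils and set their thickness and spacing, and some of them, such as decorin, bind growth factors and receptor tyrosine kinases. Decorin and lumican are typical products of the fibroblasts of soft connective tissue, while epiphycan and COMP are known from cartilage. The product of PRG4, lubricin, is the lubricant of joint surfaces.

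The libraries held 32352002 and 4027367 counts in the controls and 35496260 and 3236218 in the carcinomas, so the rarer genes are measured least well in pool 2. Levels are CPM, counts scaled to a common library size, after TMM normalization, a scaling by the bulk of genes. A count of 1 was worth 0.0339 and 0.232 CPM in the controls and 0.0286 and 0.297 in the carcinomas. The other genes were tested with the quasi-likelihood test of edgeR over all genes, and a gene was called at a Benjamini-Hochberg adjusted p under 0.05 together with a log2 fold change of 1 or more in either direction. Log2 fold changes of tested genes are given ± standard error. By that rule 4.62% of all genes were higher and 5.24% lower in carcinoma, with 0.03 as the overall median log2 fold change. With 2 pools in a group no exact permutation test can pass 0.05, so calls need the variance model over all genes. The p-values of this fit, which has no term for pool, measure the spread between pools. Epithelial genes were present in both tissues, with CDH1, which encodes E-cadherin, at 592 CPM in control and 607 CPM in carcinoma on average.

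The 6 genes did not share a direction. DCN and LUM were lower in carcinoma and PRELP, EPYC and COMP higher, while the libraries of PRG4 overlapped between the tissues. Both carcinoma libraries lay on one side of both controls for 5 of the 6 genes, as did 57.6% of all genes. In the fit across all genes PRELP and EPYC passed as higher and DCN as lower, and LUM, COMP and PRG4 did not. LUM passed as lower by DESeq2. In a fit with the pool number as a block, by which 7.09% of all genes were called higher and 6.83% lower, LUM and COMP passed as well. Since this comparison chose the genes, nothing is read from these counts against the 4.62% and 5.24% of all genes, or against the shares of the blocked fit.

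**Figure D1:**
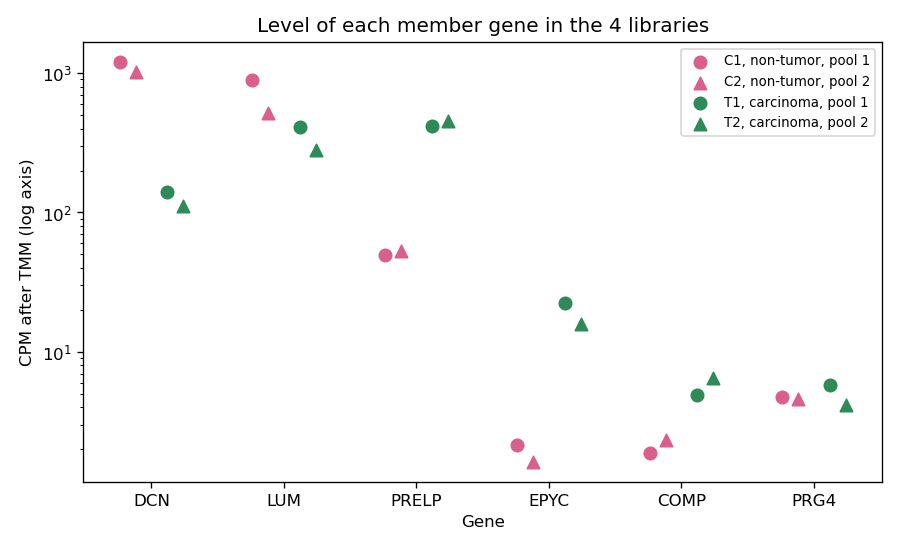
CPM after TMM (log axis) of the 6 genes, with 1 plot symbol per library, circles for pool 1, triangles for pool 2, and the tissues in pink (control) and green (carcinoma). DCN averages 1102 CPM for control against 126 CPM for carcinoma, PRELP shows the opposite order, and the symbols of PRG4 overlap.

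DCN encodes decorin, the class I proteoglycan that binds type I collagen and restrains TGF-beta and epidermal growth factor receptor signaling. It had 35210 and 4362 counts in the controls and 4916 and 373 in the carcinomas. These are 1192 and 1011 CPM in the controls and 141 and 111 in the carcinomas. The tissues did not overlap, and within each tissue pool 1 was slightly the higher. In pool 1 the level in carcinoma was 8.48-fold lower (95% interval 8.23 to 8.73) and in pool 2 it was 9.12-fold lower (8.20 to 10.2). These intervals, like those that follow, are exact, come from the counts of a library pair and cover counting error only. DCN had a log2 fold change of −3.13, and 109 of all genes had a lower one.

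LUM encodes lumican, a class II keratan sulfate proteoglycan of collagen fibrils that is best known for keeping the cornea transparent. It stood at 895 and 518 CPM in the controls and 408 and 279 in the carcinomas. The tissues did not overlap, but the step from C2 to T1 was small beside the distance between the controls. The level in carcinoma was 2.19-fold lower in pool 1 (95% interval 2.15 to 2.24) and 1.86-fold lower in pool 2 (1.72 to 2.01). The log2 fold change was −1.04, much smaller than that of DCN, and it depended on the libraries used, with −0.64 without C1 and −0.79 without T2. The number of LUM counts for each DCN count accordingly went from 0.750 in C1 and 0.512 in C2 to 2.90 in T1 and 2.51 in T2.

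PRELP encodes a class II protein with an arginine- and proline-rich start that binds heparan sulfate and so can anchor basement membranes to collagen. It stood at 49.7 and 53.3 CPM in the controls and 416 and 456 in the carcinomas. The pools of a tissue nearly coincided and the tissues lay far apart. The level in carcinoma was 8.38-fold that of control in pool 1 (95% interval 7.94 to 8.85) and 8.55-fold in pool 2 (7.44 to 9.86), a log2 fold change of 3.08. For each DCN count there were 0.0417 and 0.0527 PRELP counts in the controls and 2.96 and 4.11 in the carcinomas.

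EPYC encodes epiphycan, a class III dermatan sulfate proteoglycan of growth plate cartilage. It was rare in control, with 64 counts in C1 and 7 in C2, and had 780 counts in T1 and 53 in T2. These are 2.17 and 1.62 CPM in the controls and 22.3 and 15.8 in the carcinomas. The tissues did not overlap. The level in carcinoma was 10.3-fold that of control in pool 1 (95% interval 7.97 to 13.5) and 9.71-fold in pool 2 (4.40 to 25.3), where few counts leave a wide interval. EPYC had a log2 fold change of 3.28, and 70 of all genes had a higher one. The listed length of EPYC was 1.70 times its RefSeq span, and the gene model counted could not be checked.

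COMP encodes cartilage oligomeric matrix protein, a pentamer of the thrombospondin family that links collagen fibrils in cartilage and tendon. It had 56 and 10 counts in the controls and 172 and 22 in the carcinomas. The levels were 1.90 and 2.32 CPM in the controls and 4.92 and 6.54 in the carcinomas. The gene was low in all libraries, yet the tissues did not overlap. The level in carcinoma was 2.60-fold that of control in pool 1 (95% interval 1.91 to 3.57) and 2.82-fold in pool 2 (1.28 to 6.68), a log2 fold change of 1.44.

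PRG4 stood at 4.78 and 4.64 CPM in the controls and 5.84 and 4.16 in the carcinomas. The carcinoma libraries lay on both sides of the controls. The ratio of carcinoma to control was 1.22 in pool 1 (95% interval 0.982 to 1.53) and 0.898 in pool 2 (0.420 to 1.87), so counting error alone covers no change in both pools. The log2 fold change was 0.13, or −0.22 without T1. In the RefSeq table PRG4 overlaps TPR, a gene of the nuclear pore, which was far more abundant (295 and 238 CPM in the controls and 263 and 195 in the carcinomas). The paper names HTSeq at its default settings, which count by strand, while the processing notes name featureCounts with no strand setting, so reads of the overlap may be split wrongly.

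The contrast of the pools did not choose these genes and could be tested. With tissue as a term, 5.96% of all genes were called between pool 2 and pool 1, and 0 of the 6 members were (edgeR, 3 at an unadjusted p under 0.05, and 0 called by DESeq2). LUM was lower in pool 2 by less than the fold threshold, with a log2 difference of −0.68 ± 0.05 (adjusted p = 3.52e-25). DCN differed by −0.27 ± 0.06 (adjusted p = 2.93e-05). Such small offsets were common, since 43.3% of all genes had an adjusted p under 0.05 in this contrast. That test has 1 residual degree of freedom. Its replicates within a pool are the tissues of the same dogs, so its p-values do not measure the spread between sets of dogs. Without tissue as a term LUM (adjusted p = 0.842) and DCN (adjusted p = 0.996) did not pass, and 0 of all genes were called. That fit leaves the difference between the tissues in the error, so nothing is drawn from it. The pools hold different dogs, with a lower mean age in pool 2 by the paper, and differ in depth, which cannot be told apart. For PRELP the difference was 0.12 (adjusted p = 0.145), for EPYC −0.49 (adjusted p = 0.0527), for COMP 0.37 (adjusted p = 0.354) and for PRG4 −0.25 (adjusted p = 0.505).

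Of 14 further genes of the family, 4 had rows in the tables (BGN, FMOD, KERA and PODN), and 10, among them ASPN, OGN and OMD, were not analysed here. FMOD was higher in carcinoma, KERA and PODN were lower, and BGN did not pass, with a median log2 fold change of −0.04 over the 4. FMOD encodes fibromodulin, a class II protein of tendon and cartilage that competes with lumican for collagen. It stood at 6.91 and 8.58 CPM in the controls and 62.7 and 82.1 in the carcinomas, a log2 fold change of 3.25 ± 0.23 (adjusted p = 0.00263). KERA encodes keratocan, a close relative of lumican in the cornea and tendon. It stood at 17.9 and 13.9 CPM in the controls and 2.06 and 1.19 in the carcinomas, where T2 had 4 counts, with a log2 fold change of −3.15 ± 0.37 (adjusted p = 0.00776). FMOD kept its call without any 1 library, and so did KERA.

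PODN encodes podocan, a protein found in the vessel wall. It was lower, with a log2 fold change of −1.92 ± 0.32 (adjusted p = 0.0202). The call of PODN was lost without C2 (adjusted p = 0.0617) or T1 (adjusted p = 0.0818). The tables give PODN a length 3.32 times its span in RefSeq, where it overlaps SLC1A7, whose log2 fold change was −1.98 (adjusted p = 0.150), and reads of the pair may be mixed. BGN encodes biglycan, the nearest relative of decorin. It stood at 44.6 and 83.7 CPM in the controls and 143 and 311 in the carcinomas. No control reached a carcinoma library, but pool 2 was well above pool 1 in both tissues, and the log2 fold change of 1.83 ± 0.48 had an adjusted p of 0.0715. In a fit with pool as a replicate block BGN was called higher (log2 fold change 1.76, adjusted p = 8.39e-65). That fit takes the offset between the pools out of the error. Its common dispersion, a measure of spread beyond counting error, was 0.00216, against 0.0508 without the block. The p-value of the blocked fit thus does not measure the spread between pools. The log2 fold change of BGN was 1.37 without C1, 2.33 without C2, 2.25 without T1 and 1.18 without T2. For each DCN count there were 0.0374 and 0.0828 BGN counts in the controls and 1.01 and 2.80 in the carcinomas. The listed length of BGN was 0.380 times its RefSeq span, and its gene model could not be checked either.

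**Figure D2:**
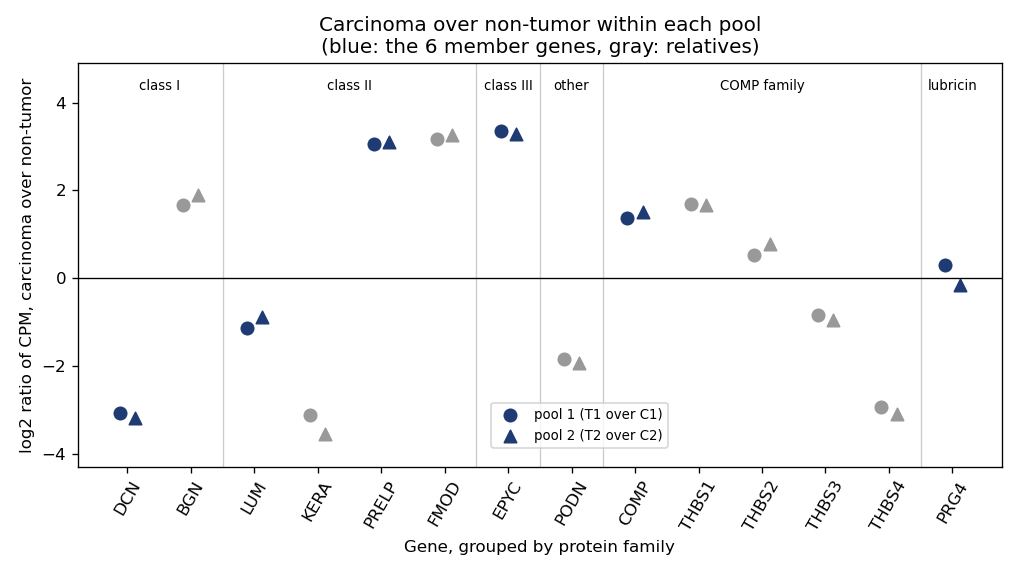
Log2 ratio of carcinoma to control CPM in pool 1 (circles, T1 over C1) and pool 2 (triangles, T2 over C2), with the 6 member genes in blue and their relatives in gray, grouped by protein class. The signs are mixed within class I, class II and the thrombospondins, and PRG4 is the gene whose pools lie on both sides of 0.

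Classes of related proteins thus held genes of both signs. In class I the log2 fold change was −3.13 for DCN and 1.83 for BGN, and in class II it was −1.04 for LUM, −3.15 for KERA, 3.08 for PRELP and 3.25 for FMOD. The summed level of the 8 measured small leucine-rich proteoglycan genes was 1967 ± 363 CPM (SD, n = 2) for control against 1230 ± 43.4 CPM for carcinoma. The make-up of this sum changed more than its size. DCN and LUM together held 93.9% and 89.4% of its counts in the controls and 45.8% and 30.9% in the carcinomas. DCN alone went from 56.4% ± 3.87 (SD, n = 2) in control to 10.3% ± 2.07 in carcinoma. PRELP went from 2.68% ± 0.624 (SD, n = 2) to 35.4% ± 1.01. BGN took 11.9% in T1 and 24.7% in T2. Counts grow with the length over which reads are counted, so these shares follow each gene across libraries and do not rank the genes by molecules.

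**Figure D3:**
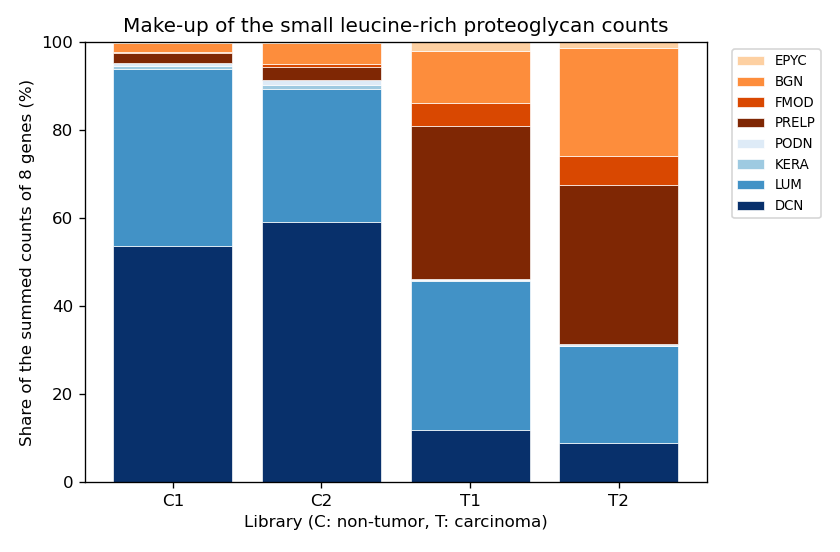
Share in percent of the summed counts of 8 small leucine-rich proteoglycan genes, as 1 stacked bar per library. The blue part (DCN, LUM, KERA and PODN) fills most of the control bars, and the orange and brown part (PRELP, FMOD, BGN and EPYC) most of the carcinoma bars, with PRELP near 35.4% on average.

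The family lies in clusters in the dog genome. In the RefSeq table (assembly UU_Cfam_GSD_1.0) EPYC, KERA, LUM and DCN follow each other with no other protein-coding gene between them, and FMOD and PRELP are likewise direct neighbors, followed by OPTC, which was not analysed here. No coordinates are given, since the build of the count tables is not known. KERA, LUM and DCN were all lower in carcinoma, and the next gene of that row, EPYC, was higher. KERA had 1.51% and 1.38% of the counts of DCN in the controls and 1.46% and 1.07% in the carcinomas, so the ratio of KERA to DCN hardly moved between the tissues. Beyond the cluster, ATP2B1 on the side of EPYC (log2 fold change 0.45, adjusted p = 0.0707) and BTG1 on the side of DCN (0.25, adjusted p = 0.474) did not pass. Farther out on the side of DCN, EEA1 did not pass (−0.11, adjusted p = 0.753), and NUDT4, which encodes a phosphohydrolase, was higher (1.42 ± 0.11, adjusted p = 0.00312).

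PRELP and FMOD were both higher, and PRELP had 7.19 and 6.22 counts for each FMOD count in the controls and 6.64 and 5.55 in the carcinomas. Their measured neighbors BTG2 (log2 fold change 1.01, adjusted p = 0.0714) and ATP2B4 (0.28, adjusted p = 0.161) did not pass. EPYC, of the other cluster, had 4.36% and 3.04% of the counts of PRELP in the controls and 5.36% and 3.46% in the carcinomas. With 7 EPYC counts in C2, the ratio of this cartilage gene to PRELP moved by less between the tissues than between the pools. The gene beside PRG4, HMCN1, which encodes the matrix protein hemicentin, was lower (log2 fold change −2.86 ± 0.20, adjusted p = 0.00262), while PRG4 was not. UPF1 beside COMP had a log2 fold change of 0.18 (adjusted p = 0.657).

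**Figure D4:**
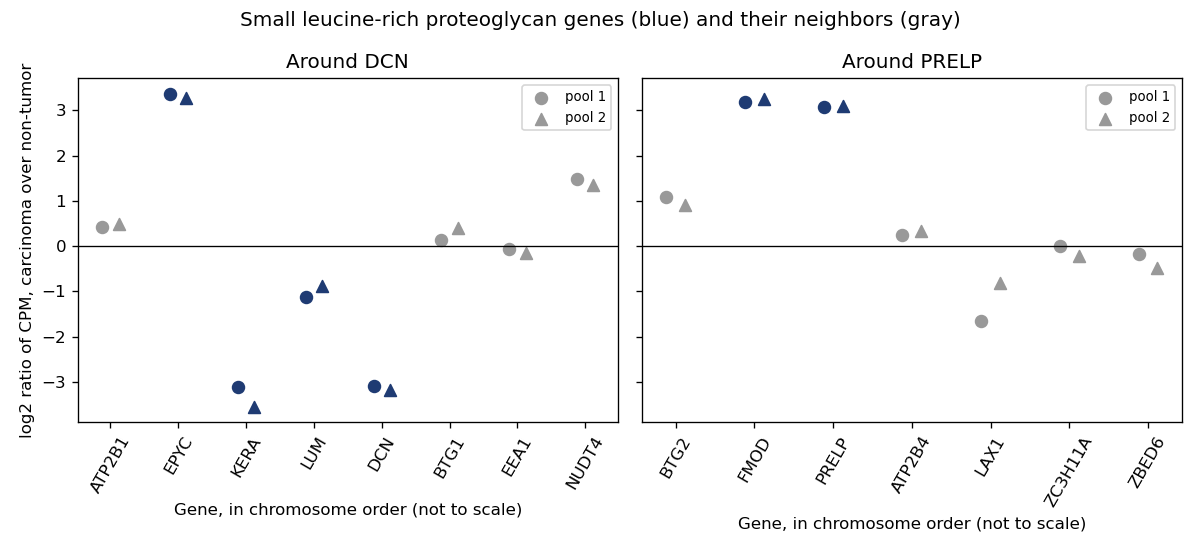
Log2 ratio of carcinoma to control CPM in pool 1 (circles) and pool 2 (triangles) for measured protein-coding genes in chromosome order around DCN (left) and PRELP (right), with small leucine-rich proteoglycan genes in blue. In the left panel EPYC lies above 3 and its neighbors KERA, LUM and DCN below 0, and in the right panel FMOD and PRELP lie together above 3.

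COMP is also thrombospondin 5, and its 4 relatives went both ways, with a median log2 fold change of −0.13. THBS1, which encodes the thrombospondin that activates latent TGF-beta, was higher (878 CPM in carcinoma and 274 in control on average, log2 fold change 1.68 ± 0.12, adjusted p = 0.00261). THBS4, the nearest relative of COMP and a protein of tendon and muscle, was lower (8.12 CPM in carcinoma and 65.8 in control, log2 ratio −2.93 in pool 1 and −3.11 in pool 2, adjusted p = 0.00187). THBS2 (0.67, adjusted p = 0.0865) and THBS3 (−0.92, adjusted p = 0.151) did not pass. Of 5 measured matrilin and cartilage intermediate layer protein genes, whose products bind COMP or lie beside it in cartilage, 1 was higher and 1 lower, or 2 and 1 with the block, and the median was 0.39. MATN4 was higher (log2 fold change 3.18 ± 0.72, adjusted p = 0.0493) and CILP lower (−1.53 ± 0.20, adjusted p = 0.0106). CILP2, the gene added by the block, had 2.74 (adjusted p = 0.170 without it), and MATN3, whose product binds COMP, had 0.39 (adjusted p = 0.424).

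The collagens that these proteins decorate also diverged. Of 15 measured genes 4 were higher and 4 lower, with a median log2 fold change of −0.36. Lower were COL14A1 (−3.68 ± 0.14, adjusted p = 0.00147), whose product binds decorin, COL6A3 (−2.03), COL5A3 (−2.23) and COL3A1 (−1.30). Higher were the cartilage genes COL2A1 (5.16), COL11A1 (4.14 ± 0.12, adjusted p = 8.91e-04) and COL11A2 (4.62), and COL12A1 (1.51), whose product coats fibrils in dense connective tissue. The cartilage collagen genes did not all do so. COL9A1 stood at 31.8 and 39.9 CPM in the controls and 22.0 and 21.4 in the carcinomas (−0.71, adjusted p = 0.0858), and COL9A2 had 0.63 (adjusted p = 0.386). The block added COL16A1 as higher and COL1A1 as lower. COL1A1, the main partner of decorin, had a log2 fold change of −1.59 without the block (adjusted p = 0.0943). COL1A2 had −0.77 (adjusted p = 0.0859).

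Among 16 measured core proteins of other proteoglycan families 4 were higher and 1 lower, or 5 and 3 with the block, and the median log2 fold change was 0.64. ACAN, which encodes the aggrecan of cartilage, stood at 712 CPM in carcinoma and 4.76 CPM in control on average. GPC4 (log2 fold change 1.61), SPOCK1 (1.59) and SPOCK3 (1.70) were also higher, though SPOCK1 was not called by DESeq2. GPC3, which encodes a glypican, was lower (33.9 CPM in control and 2.11 in carcinoma, log2 fold change −3.99 ± 0.24, adjusted p = 0.00195). VCAN, which encodes the versican of loose stroma, had a log2 fold change of 0.88 (adjusted p = 0.0536) and HSPG2, which encodes the perlecan to which PRELP binds, −1.03 (adjusted p = 0.402). The block added CSPG4 as higher, and HSPG2 and SRGN as lower.

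Most receptors and ligands of these proteins were not called, as held for most genes (4.62% of all genes were called higher and 5.24% lower). Of 9 measured genes listed as ligands and receptors of decorin or biglycan 0 were higher and 2 lower. The lower ones were ERBB4 (log2 fold change −1.07 ± 0.15, adjusted p = 0.0128) and IGF1R (−1.13 ± 0.11, adjusted p = 0.00483), both receptor tyrosine kinases. At an unadjusted p under 0.05, 3 of the 9 were higher, EGFR (0.81, adjusted p = 0.0131), TGFB2 (0.73, adjusted p = 0.0200) and P2RX7 (0.55, adjusted p = 0.0519), each below the fold threshold, and DESeq2 called 0 higher. At the same level 3 were lower, the 2 called genes and TLR4 (−0.87, adjusted p = 0.0363), a receptor of innate immunity. MET, another receptor that decorin binds, had 0.11 (adjusted p = 0.717), and the median of the 9 was also 0.11. Of 5 measured receptors of lubricin and lumican none was called (edgeR, 1 higher and 1 lower at an unadjusted p under 0.05, and 0 called by DESeq2). CD44, to which lubricin binds, had a log2 fold change of 0.35 (adjusted p = 0.137), against a median of −0.29 over the 5.

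Of 13 enzymes that build dermatan and keratan sulfate chains 0 were higher (2 at an unadjusted p under 0.05, DESeq2 0) and 1 was lower, with a median log2 fold change of 0.29. CSGALNACT1, whose product starts chondroitin sulfate chains, was lower (log2 fold change −1.36 ± 0.26, adjusted p = 0.0293). DSE, which encodes the epimerase that turns chondroitin into dermatan sulfate, had 0.92 ± 0.11 (adjusted p = 0.00741), just under the fold threshold. UST, which encodes a sulfotransferase of these chains, lay as near to it on the other side (−0.97 ± 0.15, adjusted p = 0.0177). Of 15 measured proteases of such matrix proteins 1 was higher and 5 were lower, or 3 and 5 with the block, which added MMP9 and MMP13, and the median was 0.17. MMP7, which encodes matrilysin, was higher (31.0 CPM in carcinoma and 1.17 in control, log2 fold change 4.58 ± 0.30, adjusted p = 0.00215). ADAMTS7, whose product cleaves COMP, was lower (−3.06 ± 0.60, adjusted p = 0.0326), as were the aggrecanase genes ADAMTS1 (−1.64, adjusted p = 0.00263) and ADAMTS5 (−1.32, adjusted p = 0.00413). The others lower were TLL1 (adjusted p = 0.0123), which encodes a relative of BMP1, and CTSS (adjusted p = 0.0298), which encodes a cathepsin. BMP1, whose product trims biglycan, had −0.06 (adjusted p = 0.889).

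**Figure D5:**
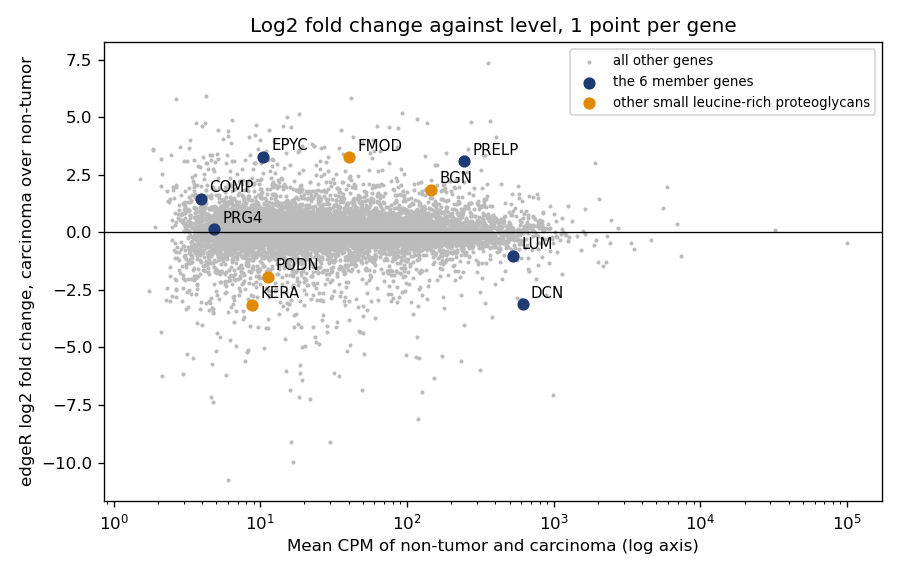
Log2 fold change of carcinoma over control (edgeR) against the mean CPM of both tissues (log axis), with 1 point per gene, the 6 member genes in blue and the other small leucine-rich proteoglycans in orange. DCN and LUM lie at the right among abundant genes and PRELP above them, while COMP and PRG4 lie to the left among genes of low level.

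Markers of several cell types also differed between the tissues. Of 9 measured fibroblast markers 7 were lower and none higher (edgeR, 0 at an unadjusted p under 0.05, DESeq2 0), or 8 lower with PI16 by DESeq2 and with the block, and their summed level was 2424 to 2743 CPM in control and 711 to 718 CPM in carcinoma. Their median log2 fold change was −1.68. Lower values than that of DCN were held by 2 of them, CLEC3B (−4.87) and MFAP5 (−4.56), and lower values than that of LUM by 8. All 7 measured striated muscle markers were lower, from a summed 1889 to 3032 CPM in control to 21.6 to 27.1 CPM in carcinoma, and MYLPF, MYL2, MB and TNNT3 had no count in T2. Of 10 measured chondrocyte markers 6 were higher and none lower (edgeR, 1 at an unadjusted p under 0.05, DESeq2 0), with a summed level of 306 CPM in both controls, 1857 in T1 and 2094 in T2, a median log2 fold change of 3.62 and no marker at 0. SOX9, the defining transcription factor gene of that list, had a log2 fold change of 0.53 (adjusted p = 0.0475), below the fold threshold. Of 4 measured tendon and fascia markers, which share FMOD, KERA and THBS4 with the lists above, 1 was higher and 2 lower. The chondrocyte markers likewise share ACAN, COL2A1, COL11A2, COL9A1 and MATN3 with those lists, so the counts are not independent.

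Luminal epithelial markers summed to 1266 to 1356 CPM in control and 1120 to 1192 CPM in carcinoma, with 1 of 6 lower (ELF5). Myoepithelial markers summed to 882 to 1083 CPM in control and 1342 to 1761 CPM in carcinoma. By edgeR 0 of 7 were called, and 2 were called higher with the block or by DESeq2. At an unadjusted p under 0.05 in edgeR, 4 were higher and 1 lower, TP63 (log2 fold change −0.42, adjusted p = 0.0608). Of blood endothelial markers 4 of 6 were lower, and of leukocyte markers 3 of 6 (2 by DESeq2). Of 4 adipocyte markers 1 was lower, CD36, and PLIN4 had a log2 fold change of 1.26 (adjusted p = 0.192, but called higher with the block). The listed length was 124855 for PLIN4, 243126 for the myoepithelial marker KRT5 and 118464 for the muscle marker CKM. These lengths were not compared with RefSeq spans, so the counts may include reads of neighboring genes. The part of the cell type markers in the values of the 6 genes was not tested. In bulk tissue, fewer cells of a type and less RNA per cell cannot be told apart.

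The genes whose pattern over the 4 libraries was most like each member were found by the distance between log2 CPM values centered on their mean, among 10123 genes with a symbol and at least 1 CPM on average. For DCN they were SLC38A4 (distance 0.0745), ABCA8 (0.118) and ATRNL1 (0.160), and for LUM DRAM2 (0.184), PLAC8 (0.185) and CNTN5 (0.233). For PRELP they were LGI1 (0.188), SLCO2A1 (0.194) and CXCL14 (0.240), and for EPYC S100A9 (0.194) and RSPO2 (0.198). CRISPLD1 (0.0722), COL13A1 (0.0788) and CTIF (0.0859) came nearest to COMP, and DCTN2 (0.0558), C5orf63 (0.0608) and MACC1 (0.0682) to PRG4. Among the 6 themselves, PRELP and EPYC lay closest (0.591) and DCN and EPYC farthest apart (6.38).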

How the data were processed

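Libraries were made with a stranded total RNA kit. The deposited tables hold whole-number counts per gene, made by the authors and not normalized, beside the length of each gene. The paper's methods name TopHat2 and HTSeq at default settings, which count by strand, while the notes that the submitters gave GEO list STAR, featureCounts, FastQC and DESeq2. The genome build, and the strand setting of featureCounts, were not given in the sources used here. The listed length was 0.380 to 3.32 times the RefSeq span for the members and the 4 measured relatives. It was 0.380 times for BGN, 1.70 for EPYC and 3.32 for PODN, and the gene models counted could not be checked. For DCN (1.00), KERA (1.01) and COMP (1.03) it was near the span, which includes introns. A length near the span would mean that reads in introns were counted, if it is the stretch over which reads were counted. Whether it is that stretch is not known. No level was therefore divided by length, and levels of different genes were not ranked. The tests used edgeR 4.0.16 in R 4.3.3, with filterByExpr, TMM, the quasi-likelihood test and a prior count of 2 for log2 CPM, and DESeq2 1.42.0 as an alternative, and p-values were adjusted over all 11277 genes, all of which passed the filter. The size of a log2 fold change over the root of its F statistic gave the standard error. Groups follow the sample titles. The main fit has tissue only (2 residual degrees of freedom). By the paper same-numbered pools share dogs, so the pool number was also used as a replicate block (1 residual degree of freedom). Across genes, the deviations of such a pair had a correlation of 0.782. Libraries of a pool also have similar depth, so this value does not show the pairing of dogs. Members and lists were chosen with earlier results of these data known. Genes were named by rule: the members, all measured family genes, up to 4 genes per list with the smallest adjusted p, and the 3 most alike genes, of which 1 is not reported here. Genes named beside these, among them the chromosome neighbors, SLC1A7, TPR, BMP1, MATN3, DSE, MMP13 and COL1A1, were chosen after their values were seen. The lists were the other small leucine-rich proteoglycans, thrombospondins, matrilins and CILP genes, other proteoglycans, collagens, and ligands and receptors of decorin or biglycan. Further lists were lubricin and lumican receptors, chain enzymes, proteases, and 9 lists of cell type markers. Of the symbols, 9403, those of all members included, matched a protein-coding gene of the RefSeq table. Figures were drawn with matplotlib 3.10.9.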

Additional observations from a re-analysis of the deposited data

Results flagged for a closer look

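PRG4 was the member whose ratio of carcinoma to control had opposite signs in the pools, with a log2 ratio of 0.29 in pool 1 and −0.16 in pool 2. The difference between the pools was not tested, since each pool has 1 library per tissue, and the counting intervals of both ratios include no change.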

How the results depend on the processing

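Leaving out 1 library at a time, the log2 fold change of carcinoma over control ranged from −3.36 to −2.97 for DCN, −1.38 to −0.64 for LUM, 2.98 to 3.13 for PRELP, 2.94 to 3.51 for EPYC, 1.20 to 1.64 for COMP and −0.22 to 0.31 for PRG4, which was negative without T1 alone. These left-out values keep the sign of the other 5 genes. PRELP had 3.06 with RLE scaling, 3.04 with library sizes without the 10 most abundant features and 3.12 with no TMM factor, and EPYC 3.35 with no TMM factor. Genes called higher over all genes numbered 521, 800 with the replicate block and 342 to 509 without 1 library (the lowest without C1), and those called lower 591, 770 with the block and 421 to 548. Of the 4 other family genes 1 was called higher and 2 lower, 2 higher by DESeq2 and with the replicate block, and 1 lower under a minimum of 10 counts per library, where KERA and EPYC are not tested. Without 1 library these were 1 to 2 in each direction. Over the other 8 lists of matrix and signaling genes 11 of 82 measured genes were called higher and 15 lower, 7 higher with at least 10 counts in every library, and 9 to 13 higher and 13 to 16 lower without 1 library. With the replicate block 16 genes of these 8 lists were called higher and 18 lower. In the contrast of the pools 593 genes were higher and 79 lower in pool 2. With at least 10 counts 40 were lower. Without tissue as a term, where the difference between the tissues is part of the error, 0 were called in either direction. With 1 library left out the lone library of a tissue is assumed to vary like the others. The cause of these shifts was not tested. Depth in pool 2 limits EPYC, COMP, PRG4 and KERA, which had 4 to 60 counts there.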
